A study of Mus musculus with 12 samples.

Results

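Integrins and laminins are the receptors and the sheet-forming proteins that fasten heart cells to the basement membrane around them. The genes were taken from heart RNA-seq by symbol, as every integrin alpha chain, every integrin beta chain, the integrin-related Itgbl1 and every laminin alpha, beta and gamma chain listed. This gave 38 of the 44450 loci in the deposited files, of which 27 were integrins and 11 were laminins. At least 1 FPKM (fragments mapped to a locus, scaled for transcript length and for the size of the library) in at least 3 of 6 libraries was reached by 24 of the 38, 16 integrins and 8 laminins, and by 12181 of all loci.

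Hearts of C57BL/6N mice aged 11 weeks were compared. The 3 knockout hearts were Mrpp3 loxP/loxP, +/Ckmm, where Ckmm stands for a Cre recombinase under the muscle creatine kinase promoter, active in heart and skeletal muscle cells. The 3 control hearts were Mrpp3 loxP/loxP without it, so both groups carry the loxP-flanked gene and an effect of Cre itself cannot be told apart from that of the deletion. MRPP3 is the nuclease of mitochondrial RNase P, which frees tRNAs from mitochondrial transcripts. The libraries were made from total RNA of whole heart, so muscle, stromal, vessel and blood cells all contributed, and the labels do not state whether the numbered replicates were separate animals. A further 6 libraries of mitochondrial RNA ends were not analysed here.

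An integrin is a pair of one alpha and one beta chain that spans the cell membrane, binds matrix outside and couples to actin inside through talin, kindlin and the kinase-like adaptor ILK. The alpha chain sets most of the ligand choice. Integrin alpha-7 with beta-1 is the main laminin receptor of adult heart muscle cells. Alpha-5 beta-1 and the alpha-v integrins read fibronectin and vitronectin in stromal and vessel cells, and beta-2 integrins let leukocytes adhere and engulf. Laminins are trimers of one alpha, one beta and one gamma chain. The alpha-2 form surrounds muscle cells, and the alpha-4 and alpha-5 forms lie under the endothelium.

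The targeted gene, listed as 1110008L16Rik, was low in every library labelled knockout, with 0.441, 0.701 and 0.555 FPKM against 3.49, 2.64 and 3.23 FPKM in the control libraries. Steps between the lowest values placed knockout depth at 2.06 to 2.58 times that of control replicate 1 and control depth at 1 to 1.35 times, so a value near 0 is less certain in the controls. Knockout replicate 2 stood apart. Its summed atrial markers reached 3320 FPKM, against 118 and 3.44 in the other knockouts and 1.65 to 6.75 in controls. Its red cell markers reached 20706 FPKM against 591 and 1886 in the other knockouts, and its mesothelial markers 19.4 FPKM against 2.59 and 1.89. In atrial markers, knockout replicate 1 also lay above every control. Defining heart muscle markers were abundant everywhere, and 5 of 8 were lower in the knockout, with a summed level of 6373 to 13458 FPKM in knockout hearts and 27169 to 30370 FPKM in control hearts. The 5 became 2 (Ryr2 and Pln) with no filter on low values, and 3 without any 1 control or by quantile normalization, while the summed level did not overlap. In whole heart RNA, fewer cells of a type and less RNA per cell cannot be told apart.

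Of the 24 genes tested, 6 rose and 2 fell in the knockout by limma at a Benjamini-Hochberg adjusted p under 0.05. Itgb6 fell most and Itgbl1 rose most. Itgam, Itga5, Itgb5, Itgav and the laminin chain Lamc1 also rose, and the laminin chain Lama5 also fell. Over all 12181 loci tested, 35.7% were called, 16.1% higher and 19.5% lower. The members were called at 33.3%, so as a group they stood near the background, and the changes below are those of single genes. The median log2 fold change of the tested members was 0.06 against -0.02 for all loci, where each fold change sets knockout over control after log2(FPKM + 0.5), a scale that shrinks the change of low genes. Among integrins 5 rose and 1 fell, with a median of 0.26, and among laminins 1 rose and 1 fell, with a median of -0.19. When all libraries were brought to one summed FPKM, the median of all loci became 0.19, with 3229 loci higher and 1402 lower, against 1966 and 2377 unscaled. Under that scaling 5 integrins were called higher and 1 lower, 1 laminin was called higher and 1 lower, and the laminin median became 0.01. Without control replicate 3, 3 integrins and 0 laminins were called higher by limma.

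**Figure D1:**
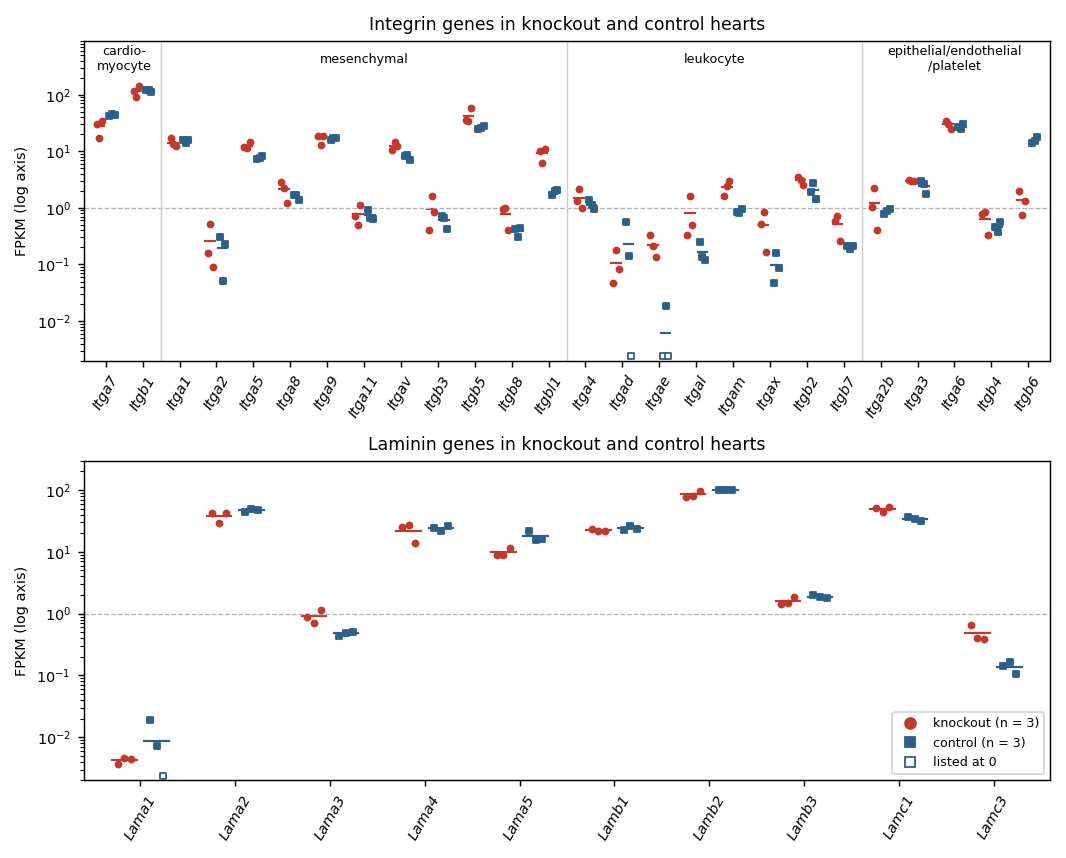
FPKM of integrin (upper panel) and laminin (lower panel) genes on a log axis, with knockout libraries as red circles, control libraries as blue squares, bars at the group means and open symbols for values listed at 0. The dashed line marks 1 FPKM, and Itgb6 shows the widest gap among tested genes, at 0.745 to 2.03 FPKM in knockouts and 14.0 to 17.97 FPKM in controls.

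**Figure D2:**
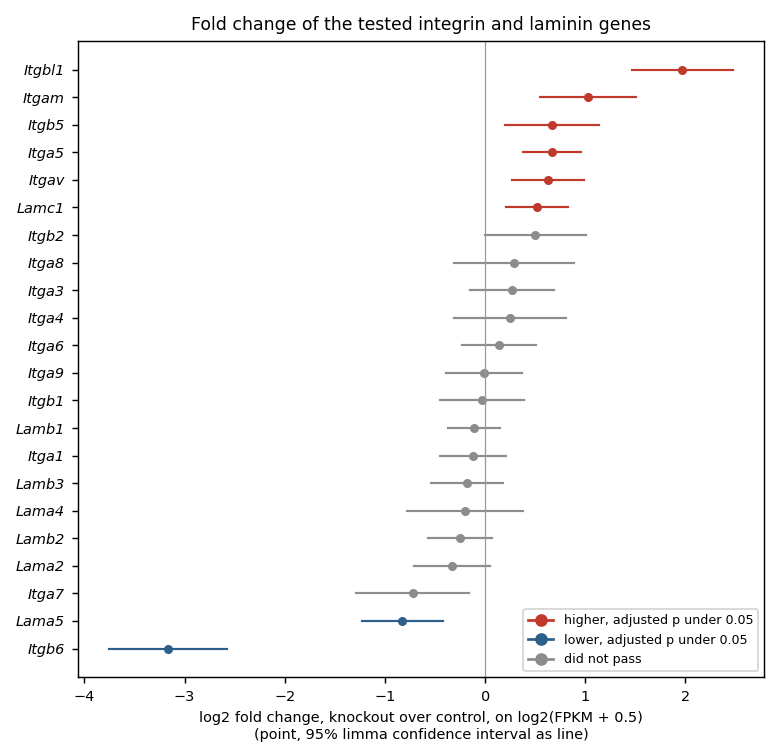
Log2 fold change, knockout over control, of tested members with 95% limma confidence intervals, in red where higher, in blue where lower and in grey where the adjusted p was 0.05 or more. Itgb6 at -3.17 and Itgbl1 at 1.97 lie farthest from 0.

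The muscle laminin receptor came first. Itga7, the alpha-7 chain (GRCm38 chromosome 10, 128933421 to 128958286), had 30.9, 17.5 and 34.1 FPKM in knockout hearts, against 41.6, 46.0 and 44.6 FPKM in control hearts. Every knockout library lay below every control, and knockout replicate 2 was the lowest. The log2 fold change of -0.73 (SE 0.24, 95% interval -1.29 to -0.16) just missed the threshold, with a limma adjusted p of 0.051. Leaving out knockout replicate 2 gave -0.43 with an adjusted p of 0.020, and leaving out knockout replicate 3 gave -0.91 with 0.028, so the call turned on single libraries. As a share of all integrin alpha chain FPKM (without Itga10, which is not reported here), Itga7 took 22.8, 14.9 and 26.8% in knockouts against 33.1, 36.4 and 34.3% in controls. It was the most abundant alpha chain in knockout replicate 3 and in each control, and Itga6 was above it in the other knockouts.

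Itgb1 encodes the beta-1 chain that pairs with Itga7 and with most alpha chains of other cells. It had 118, 91.1 and 141 FPKM in knockout hearts and 119, 122 and 111 FPKM in control hearts, the highest level of any integrin in both groups. The groups overlapped, and the log2 fold change was -0.03 (95% interval -0.45 to 0.39, limma adjusted p = 0.91), with a sign that changed under every scaling tried. The values are per gene and do not separate the muscle splice form of beta-1 from the common one, nor the splice forms of alpha-7. The deposited level of Itgb1 thus stayed within replicate spread while that of Itga7 was lower in 3 of 3 knockouts. Of the 8 heart muscle markers given above, 5 were called lower. Myl2 was lower in every knockout but was not called (log2 fold change -2.28, limma adjusted p = 0.051). Actn2 and Myom2 overlapped between groups (log2 fold change -0.12 and -0.01). The part of heart muscle cells in the lower level of Itga7 was not tested.

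Among the integrin and integrin-related genes best known in stromal and vessel cells, 4 of 8 tested rose and none fell. Over all loci 16.1% were higher and 19.5% lower. The 4 include Itgbl1, which does not encode a membrane receptor. Itga5, the alpha-5 chain of the classical fibronectin receptor (chromosome 15, 103344286 to 103366791), had 12.0, 11.7 and 14.3 FPKM in knockout hearts, against 7.29, 7.75 and 8.30 FPKM in control hearts. All knockouts exceeded all controls. The log2 fold change was 0.67 (SE 0.12, limma adjusted p = 0.0064), and the call was made in each of the 16 alternative analyses.

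Itgav, the alpha-v chain that pairs with beta-1, beta-3, beta-5, beta-6 and beta-8 (chromosome 2, 83722303 to 83806917), had 10.7, 14.8 and 12.3 FPKM in knockout hearts, against 8.27, 8.61 and 6.90 FPKM in control hearts. The groups did not overlap, and knockout replicate 2 was the highest. The fitted log2 fold change was 0.63 (SE 0.15, limma adjusted p = 0.018), a call lost without control replicate 3 (0.54, adjusted p = 0.069). Its partner Itgb5, the beta-5 chain of the vitronectin receptor (chromosome 16, 33829665 to 33949338), had 35.7, 34.9 and 57.3 FPKM in knockout hearts, against 24.4, 25.6 and 27.7 FPKM in control hearts. Here knockout replicate 3 was far above the others. On the log2 scale the change was 0.67 (SE 0.20, limma adjusted p = 0.037), and the call was lost without any one control (adjusted p 0.11, 0.10 and 0.081 without control replicates 1, 2 and 3) and with no filter on low values (0.069).

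Itgbl1 (chromosome 14, 123659937 to 123978865) encodes a secreted protein with repeats like those of integrin beta chains, and is not itself a membrane receptor. It had 10.3, 6.21 and 11.1 FPKM in knockout hearts, against 1.68, 1.97 and 2.09 FPKM in control hearts. Every knockout was well clear of the highest control, and knockout replicate 2 was the lowest of the 3. The log2 fold change was 1.97 (SE 0.22, limma adjusted p = 0.00091), and the ratio of mean FPKM, knockout over control, was 4.81.

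The collagen and tenascin receptors of this class did not pass. Itga1, a collagen receptor chain, had 14.2 ± 2.38 FPKM in knockout hearts and 15.4 ± 1.01 FPKM in control hearts (SD, n = 3 each), a log2 fold change of -0.12 (95% interval -0.45 to 0.21, limma adjusted p = 0.54). Itga9, whose product binds tenascin-C and VCAM-1, had 16.9 ± 3.32 and 16.7 ± 0.989 FPKM in knockout and control hearts, a log2 fold change of -0.01 (95% interval -0.39 to 0.37). Itga8, a receptor chain of mesenchymal cells, had 2.14 ± 0.849 FPKM in knockout hearts and 1.58 ± 0.198 FPKM in control hearts (log2 fold change 0.29, limma adjusted p = 0.41). For these genes the groups overlapped. The signs of Itga1 and Itga9 turned positive under scaling to one sum, to 0.10 and 0.21.

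Fibroblast markers moved in part alongside these genes. Of 8 fibroblast markers, 4 rose (Col1a1, Col1a2, Col3a1 and Tcf21) and none fell. The others had log2 fold changes of 0.63 for Lum, -0.26 for Pdgfra, -0.31 for Dcn and -0.35 for Dpt, and Dcn was lower in every knockout. The 4 became 2 with no filter on low values or without any 1 control. The summed fibroblast level overlapped, at 352 to 598 FPKM in knockout hearts and 356 to 435 FPKM in control hearts. Of 7 mural and smooth muscle markers 2 rose (Pdgfrb and Cspg4) and 1 fell (Rgs5). With no filter or without any 1 control, 1 rose and 0 fell by limma. Their sum was 199 to 247 FPKM in knockouts and 270 to 302 FPKM in controls. Rgs5 was the largest part of that sum, at 75.4 to 127 FPKM in knockouts and 162 to 174 FPKM in controls. Acta2, Myh11, Tagln and Notch3 overlapped between groups. The part of these cell types in the rise of Itga5, Itgav, Itgb5 and Itgbl1 was not tested.

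Itga5 and Itga7 share the beta-1 chain, and the difference between them within a library does not depend on scaling. Itga5 minus Itga7 was -1.33, -0.56 and -1.225 on the log2(FPKM + 0.5) scale in knockout hearts, against -2.44, -2.50 and -2.36 in control hearts. Itga7 was thus above Itga5 in each library, by less in each knockout than in any control. The exact two-sided permutation p was 0.10, the smallest that 3 against 3 allows, and 0.23 adjusted over the 7 pairs compared.

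**Figure D3:**
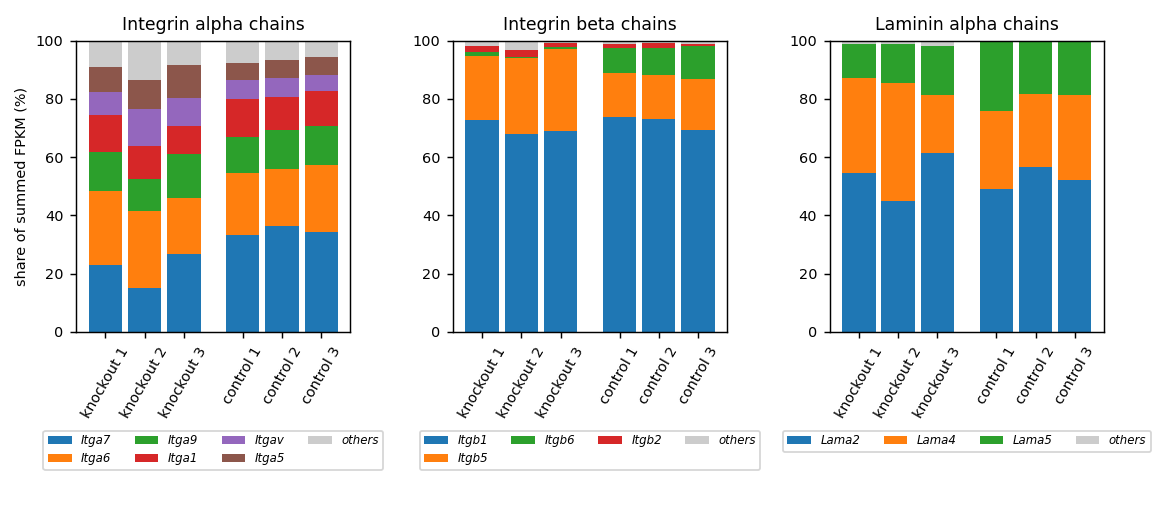
Share of summed FPKM (%) held by each chain in the 3 knockout and 3 control libraries, for integrin alpha chains (without Itga10), integrin beta chains and laminin alpha chains. Itga7 holds 14.9 to 26.8% in knockouts and 33.1 to 36.4% in controls, and Itgb6 holds 0.556 to 1.25% in knockouts and 8.69 to 11.2% in controls.

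Leukocyte integrins were rare in these hearts, and of the 3 tested 1 rose. Itgam (chromosome 7, 128062640 to 128118491) encodes the alpha-M chain, also called CD11b, carried by macrophages, monocytes and neutrophils. It had 1.66, 2.48 and 2.95 FPKM in knockout hearts, against 0.850, 0.814 and 0.965 FPKM in control hearts. The groups did not overlap. The fitted log2 fold change was 1.03 (SE 0.20, limma adjusted p = 0.0081). Itgam entered the test only through the knockout libraries, since no control reached 1 FPKM, and with no filter on low values its adjusted p was 0.024.

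Itgb2, the beta-2 chain that pairs with Itgam, Itgal, Itgax and Itgad, had 3.54, 3.12 and 2.55 FPKM in knockout hearts, against 1.95, 2.78 and 1.46 FPKM in control hearts. Control replicate 2 lay above knockout replicate 3, and the log2 fold change of 0.50 (95% interval -0.00 to 1.00) did not pass (limma adjusted p = 0.11). Itga4, the alpha-4 chain that binds VCAM-1 and fibronectin, had 1.497 ± 0.593 FPKM in knockout hearts and 1.14 ± 0.206 FPKM in control hearts (log2 fold change 0.25, limma adjusted p = 0.45). Summed over all 8 leukocyte integrins, the level was 8.33, 11.3 and 7.64 FPKM in knockouts, against 5.22, 5.36 and 3.79 FPKM in controls.

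The other 5 leukocyte chains did not reach the minimum level and were not part of the main test. Itgal, the alpha-L chain of LFA-1, had 0.326, 1.62 and 0.498 FPKM in knockout hearts, against 0.251, 0.136 and 0.119 FPKM in control hearts. Itgax, the CD11c chain of dendritic cells and some macrophages, had 0.509, 0.839 and 0.169 FPKM in knockouts, against 0.0461, 0.157 and 0.0857 FPKM in controls. For both, knockout replicate 2, the library with the most blood and atrial transcripts, was the highest. Itgb7 ran from 0.261 to 0.709 FPKM in knockouts and from 0.189 to 0.214 FPKM in controls. Itgae, the alpha-E chain of mucosal lymphocytes and some dendritic cells, had 0.134 to 0.330 FPKM in knockouts and was listed at 0 in control replicates 1 and 3 and at 0.0184 FPKM in control replicate 2. Itgad overlapped between groups, at 0.0471 to 0.181 FPKM in knockouts and 0 to 0.558 FPKM in controls. Of the 14 members below the minimum, 6 were higher in every knockout than in every control and none was lower in every knockout. Over the 10322 loci above 0 that also missed the minimum, 10.4% were higher in every knockout and 8.27% lower, and the knockout libraries were the deeper ones.

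Macrophage and pan-leukocyte markers mostly rose, as Itgam did. Of 9 macrophage markers, 7 rose and none fell, with a summed level of 239 to 269 FPKM in knockout hearts and 163 to 175 FPKM in control hearts. One of the 7, Fcgr1, entered the test only through the knockouts, at 1.07, 1.82 and 1.299 FPKM against 0.259, 0.418 and 0.976 FPKM in controls. With no filter on low values the 7 became 5, without Fcgr1 and Adgre1 (limma adjusted p = 0.090 and 0.053). Of 4 tested pan-leukocyte markers 3 rose, and the sum over all 5 was 30.0 to 40.5 FPKM in knockouts and 14.0 to 17.4 FPKM in controls. None of the T cell or B cell markers reached the minimum level, with T cell sums of 0.580 to 1.92 FPKM in knockouts and 0.384 to 1.17 FPKM in controls and B cell sums of 0.275 to 1.79 and 0.455 to 0.983 FPKM. Of 5 neutrophil markers 2 were tested and neither passed. Below the minimum level Csf3r had 0.595 to 1.12 FPKM in knockouts and 0.289 to 0.523 FPKM in controls, and Ly6g was listed at 0 in all libraries but knockout replicate 2. Of 4 dendritic cell markers only Zbtb46 was tested, at 4.02 to 6.22 FPKM in knockouts and 6.28 to 8.53 FPKM in controls (limma adjusted p = 0.094). Flt3 had 0.117 to 0.351 FPKM in knockouts and 0 to 0.0527 FPKM in controls, and Xcr1 had 0.134 to 0.267 FPKM in knockouts and was listed at 0 in each control; with no filter both were called higher (limma adjusted p = 0.042 and 0.012). The part of leukocyte number in the rise of Itgam and in the levels of Itgax and Itgae was not tested.

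The integrins best known from epithelium, endothelium and platelets held the largest fitted change among the 24 tested members, on the log2(FPKM + 0.5) scale. Itgb6 encodes the beta-6 chain, which pairs with alpha-v, is known mainly from epithelium and activates latent TGF-beta. The gene (chromosome 2, 60598292 to 60722603) had 2.03, 0.745 and 1.35 FPKM in knockout hearts, against 14.0, 15.2 and 17.97 FPKM in control hearts. The highest knockout was far below the lowest control. On the log2 scale the change was -3.17 (SE 0.25, 95% interval -3.76 to -2.58, limma adjusted p = 0.00036), the ratio of mean FPKM, knockout over control, was 0.0872, and the call was made in each of the 16 alternative analyses. Itgb6 was the fourth most abundant beta chain in knockout hearts, after Itgb1, Itgb5 and Itgb2, and the third in control hearts, after Itgb1 and Itgb5.

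The epithelial markers Epcam, Krt5, Krt14 and Krt8 were at or near 0, with a summed level of 0.0748 to 0.637 FPKM in knockout hearts and 0 to 0.122 FPKM in control hearts. Krt5 was listed at 0 in all 6 libraries, and Cdh1, an epithelial cadherin and integrin ligand, was listed at 0 in all 3 controls. The mesothelial marker sum was 1.89 to 19.4 FPKM in knockouts and 1.88 to 2.78 FPKM in controls. Which heart cells carried it was not tested.

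Itga6, a laminin receptor chain of endothelium and epithelium, had 34.7, 30.9 and 24.5 FPKM in knockout hearts, against 27.0, 24.5 and 29.9 FPKM in control hearts. The groups overlapped (log2 fold change 0.13, 95% interval -0.23 to 0.50, limma adjusted p = 0.54). Itga3, another laminin receptor chain, had 3.01 ± 0.115 FPKM in knockouts and 2.46 ± 0.630 FPKM in controls (log2 fold change 0.27, limma adjusted p = 0.28). Endothelial markers were called in 0 of 7 cases by limma, with sums of 270 to 356 FPKM in knockouts and 306 to 345 FPKM in controls. At an unadjusted p under 0.05 there were 2, Kdr and Tek (limma adjusted p = 0.064 and 0.082). Both were lower in every knockout than in any control, with log2 fold changes of -0.36 and -0.34. Itga2b, the platelet alpha-IIb chain, had 1.03, 2.23 and 0.408 FPKM in knockouts and 0.795, 0.890 and 0.972 FPKM in controls. Itgb3, which pairs with Itga2b on platelets and with Itgav elsewhere, had 0.413, 1.61 and 0.830 FPKM in knockouts and 0.733, 0.661 and 0.428 FPKM in controls. Both were highest in knockout replicate 2, where the platelet markers also summed highest, at 42.5 FPKM against 14.9 and 19.9 in the other knockouts and 18.7 to 22.9 in controls. Itgb4, which pairs with Itga6 in epithelium, stayed at or under 0.836 FPKM in every library, and Itga2, Itga11 and Itgb8 also overlapped between groups below the minimum level.

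Lama2, the alpha chain of the muscle form, held 54.7, 44.8 and 61.3% of laminin alpha chain FPKM in knockout hearts, against 49.1, 56.7 and 52.2% in control hearts. It was the most abundant alpha chain in each library. By mean FPKM the most abundant laminin chains were, in order, Lamb2, Lamc1 and Lama2 in knockout hearts and Lamb2, Lama2 and Lamc1 in control hearts. Lamc1, the gamma-1 chain found in most laminins (chromosome 1, 153218922 to 153332786), had 51.2, 43.6 and 52.8 FPKM in knockout hearts, against 37.1, 34.1 and 31.1 FPKM in control hearts. The groups did not overlap. The log2 fold change was 0.52 (SE 0.13, limma adjusted p = 0.020), a call lost without knockout replicate 1, control replicate 2 or control replicate 3 (adjusted p = 0.061, 0.077 and 0.085).

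The chains that assemble with it in muscle did not pass. Lama2, the alpha-2 chain whose loss causes a congenital muscular dystrophy, had 42.0, 29.6 and 42.2 FPKM in knockout hearts, against 45.0, 49.6 and 47.1 FPKM in control hearts. Lamb2, the beta-2 chain, had 78.2, 79.5 and 97.6 FPKM in knockout hearts, against 100.1, 101.0 and 100.9 FPKM in control hearts. For both genes every knockout was below every control, but the log2 fold changes of -0.33 for Lama2 and -0.25 for Lamb2 missed the threshold (limma adjusted p = 0.15 and 0.19). Lamb1 overlapped, with 22.4 ± 0.997 FPKM in knockouts and 24.3 ± 1.82 FPKM in controls (log2 fold change -0.11, 95% interval -0.37 to 0.15), and turned to 0.11 under scaling to one sum. Over all tested loci 28.7% were lower in every knockout and 23.6% higher, against 6 and 6 of the 24 tested members.

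Lamc1 minus Lamb2 within a library was -0.60, -0.86 and -0.88 on the log2(FPKM + 0.5) scale in knockout hearts, against -1.42, -1.55 and -1.68 in control hearts. The gamma-1 chain was below the beta-2 chain in each library, by less in each knockout. The exact two-sided permutation p was 0.10, the smallest possible, and 0.23 adjusted over the 7 pairs. Lamb1 minus Lamb2 was -1.89 ± 0.216 in knockouts and -2.03 ± 0.10 in controls (SD, n = 3 each, exact permutation p = 0.40).

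Lama5, the alpha-5 chain of the basement membrane of mature endothelium and epithelium (chromosome 2, 180176373 to 180225904), had 8.86, 8.83 and 11.7 FPKM in knockout hearts, against 21.7, 15.5 and 16.2 FPKM in control hearts. All knockouts lay below all controls, and control replicate 1 was the highest. The fitted log2 fold change was -0.83 (SE 0.17, limma adjusted p = 0.010), and the call was made in each of the 16 alternative analyses. Lama4, the other endothelial alpha chain, had 25.1, 26.9 and 13.8 FPKM in knockout hearts, against 24.5, 21.8 and 26.5 FPKM in control hearts. Knockout replicate 3 alone was low, and the log2 fold change of -0.20 (limma adjusted p = 0.56) turned to 0.10 without it and to 0.03 under scaling to one sum. Lama5 minus Lama2 on the log2 scale was -1.89 ± 0.257 in knockouts and -1.40 ± 0.320 in controls (SD, n = 3 each, exact permutation p = 0.10, adjusted over the pairs 0.23).

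The laminin chains of epithelia and embryo were low. Lamb3, the beta-3 chain, had 1.61 ± 0.254 FPKM in knockouts and 1.87 ± 0.122 FPKM in controls (log2 fold change -0.18, limma adjusted p = 0.39). Below the minimum level, Lama3 had 0.718 to 1.13 FPKM in knockouts and 0.440 to 0.513 FPKM in controls. Lamc3 had 0.387 to 0.652 FPKM in knockouts and 0.105 to 0.165 FPKM in controls, and Lama1, the embryonic alpha chain, did not exceed 0.0191 FPKM in any library. With no filter on low values, Lamc3 and Itgae were called higher (limma adjusted p = 0.025 and 0.022).

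Sequences upstream of a listed start site are given for 5 of the called genes, those that changed most or whose role the results turn on. The genes are the largest fall and the other fall (Itgb6 and Lama5), the largest rise (Itgbl1), the fibronectin receptor (Itga5) and the leukocyte chain (Itgam). Each window is the 250 bases before a listed RefSeq start on GRCm38.p6, 5′ to 3′ on the strand of the gene. The windows of Itgbl1 and Lama5 overlap the gene spans given above, so part of each lies within the gene. Those spans begin at 123659937 for Itgbl1 (+ strand) and end at 180225904 for Lama5 (- strand). Capitals mark the Sp1 box GGGCGG and the purine-rich core GAGGAA of PU.1, a transcription factor of myeloid cells, on either strand (CCGCCC and TTCCTC where read on the other strand). For Itgb6 the start farther upstream of its 2 listed starts is shown.
Itgb6 (chr2:60722604-60722853, - strand): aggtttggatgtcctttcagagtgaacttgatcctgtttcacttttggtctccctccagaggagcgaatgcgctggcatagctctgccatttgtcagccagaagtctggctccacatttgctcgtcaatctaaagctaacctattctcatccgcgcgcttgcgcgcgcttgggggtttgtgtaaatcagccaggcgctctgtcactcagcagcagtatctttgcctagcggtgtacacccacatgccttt
Lama5 (chr2:180225860-180226109, - strand): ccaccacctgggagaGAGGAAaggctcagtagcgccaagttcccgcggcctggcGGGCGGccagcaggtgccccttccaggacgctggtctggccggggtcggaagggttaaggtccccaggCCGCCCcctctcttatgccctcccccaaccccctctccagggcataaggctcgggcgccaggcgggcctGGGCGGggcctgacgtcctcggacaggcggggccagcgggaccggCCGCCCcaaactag
Itgbl1 (chr14:123659890-123660139, + strand): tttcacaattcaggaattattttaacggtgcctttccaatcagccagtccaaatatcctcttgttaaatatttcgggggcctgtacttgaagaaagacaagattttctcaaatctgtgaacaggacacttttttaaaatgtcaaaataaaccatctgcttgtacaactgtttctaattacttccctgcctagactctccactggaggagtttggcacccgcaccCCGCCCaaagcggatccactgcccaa
Itga5 (chr15:103366792-103367041, - strand): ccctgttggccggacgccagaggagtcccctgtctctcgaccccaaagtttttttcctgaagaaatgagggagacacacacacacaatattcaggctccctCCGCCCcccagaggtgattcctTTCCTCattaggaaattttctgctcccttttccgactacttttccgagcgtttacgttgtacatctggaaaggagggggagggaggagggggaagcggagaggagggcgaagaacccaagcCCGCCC
Itgam (chr7:128062390-128062639, + strand): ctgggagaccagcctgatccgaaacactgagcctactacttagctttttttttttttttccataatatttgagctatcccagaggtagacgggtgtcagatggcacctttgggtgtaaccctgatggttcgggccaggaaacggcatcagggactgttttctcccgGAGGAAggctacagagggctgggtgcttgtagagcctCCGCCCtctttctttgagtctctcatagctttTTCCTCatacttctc

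The window of Itgam held GAGGAA in 2 places, beginning 84 and 15 bases before the start, and the windows of Lama5 and Itga5 held it once each. Among members not shown, Itgav and Itga2b also held it in 2 places, and the leukocyte members Itga4, Itgax and Itgb7 in 0. GAGGAA was in 13 of the 27 windows listed for 24 of the members, and in 23.3% of the 32851 windows of this length over all genes. GGGCGG was in 4 places before Lama5, 2 before Itga5 and 1 before Itgbl1 and Itgam, and was in 10 of the 27 windows against 32.7% of all. The Itgb6 window shown held neither. TATAAA was in 0 of the 27 windows and in 12.4% of all, the TEAD motif GGAATG in 3 and 12.6%, TGANTCA in 1 and 6.75%, and CANNTG in 22 and 66.2%. The GC content of the 5 windows ran from 42.4% at Itgbl1 to 72.4% at Lama5, with a median of 52.4% over all windows. A match is a description of letters and does not show binding.

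Of 24 tested adaptors and focal adhesion genes, which carry the integrin signal inward, 7 rose and 3 fell, with a median log2 fold change of 0.17. The share called was 41.7%, near the 35.7% over all loci. Itgb1bp2, which encodes melusin, a muscle protein that binds the beta-1 tail, had 33.1, 15.0 and 40.6 FPKM in knockout hearts, against 112, 119 and 122 FPKM in control hearts. The groups lay far apart, and knockout replicate 2 was the lowest. The log2 fold change was -2.09 (SE 0.33, limma adjusted p = 0.0035). Lims1, the PINCH1 adaptor of ILK, fell to 35.4 ± 8.50 FPKM in knockout hearts, against 79.9 ± 5.30 FPKM in control hearts (log2 fold change -1.19, limma adjusted p = 0.0035). Zyx, which encodes the focal adhesion protein zyxin, rose to 24.8 ± 4.78 FPKM in knockout hearts, against 11.4 ± 1.22 FPKM in control hearts (log2 fold change 1.08, limma adjusted p = 0.0034). Ptk2b, a focal adhesion kinase relative, had 2.76 ± 0.826 FPKM in knockout hearts and 1.05 ± 0.178 FPKM in control hearts (log2 fold change 1.05, limma adjusted p = 0.010).

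The talins, named after their values were seen, moved apart. Tln1, the talin of most cells, had 50.2 ± 4.73 FPKM in knockout hearts and 32.1 ± 1.79 FPKM in control hearts (log2 fold change 0.63, limma adjusted p = 0.0076). Tln2, the form abundant in striated muscle, had 12.8 ± 0.895 FPKM in knockouts and 17.2 ± 0.937 FPKM in controls (log2 fold change -0.42, limma adjusted p = 0.025). The Tln2 call was lost without knockout replicate 1 or any one control (adjusted p 0.062 to 0.094) and under scaling to one sum (-0.19, adjusted p = 0.17). ILK itself, from Ilk, had 31.6 ± 2.13 and 28.0 ± 1.05 FPKM in knockout and control hearts and did not pass (log2 fold change 0.17, limma adjusted p = 0.27), but was called higher under scaling to one sum (0.39, adjusted p = 0.020). Without any 1 control, 4 adaptors were called higher, and without knockout replicate 3, 6 were called lower.

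Around the laminins, 4 of 15 tested basement membrane genes rose and 1 fell, with a median of 0.31. The share called was 33.3%, against 35.7% over all loci. Sparc, a collagen-binding matrix protein, had 237, 222 and 137 FPKM in knockout hearts, against 90.3, 84.5 and 90.2 FPKM in control hearts (log2 fold change 1.13, limma adjusted p = 0.0074). Col4a2, a chain of the type IV collagen network of basement membranes, had 98.8 ± 8.01 FPKM in knockout hearts and 56.5 ± 2.19 FPKM in control hearts (log2 fold change 0.80, limma adjusted p = 0.0032). Col4a5 rose by 0.68 (limma adjusted p = 0.019), and missed the threshold when a control was left out (0.072, 0.059 and 0.052 without control replicates 1, 2 and 3). Smoc2 fell by 1.04 on the log2 scale (limma adjusted p = 0.046), and missed it when any control or knockout replicate 3 was left out (adjusted p 0.058 to 0.14), with no filter on low values (0.098), under scaling to one sum (0.073) or to median ratios (0.053) and without a variance trend (0.052). Nid1, which links laminin to type IV collagen, had 29.5 ± 2.87 and 27.2 ± 2.64 FPKM in knockout and control hearts, and did not pass (limma adjusted p = 0.51). Without any 1 control, 2 basement membrane genes were called higher and 0 lower by limma, and without knockout replicate 3, 7 were called higher and 0 lower.

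The dystroglycan complex is the other laminin receptor of muscle, and 5 of its 21 tested genes fell while 2 rose, with a median of -0.15. At 33.3% called, against 35.7% over all loci, the list stood near the background. Sspn, encoding sarcospan, had 23.5, 24.4 and 20.3 FPKM in knockout hearts, against 39.7, 42.8 and 39.5 FPKM in control hearts. The groups lay far apart, and the log2 fold change was -0.83 (SE 0.12, limma adjusted p = 0.0025). Sgca, the alpha-sarcoglycan gene, fell by 0.71 (limma adjusted p = 0.047), a call lost with any control left out (0.11 to 0.13), under scaling to one sum (-0.48, 0.12) or to median ratios (0.059), with no filter (0.089) or one on the mean (0.052), and without a variance trend (0.051). Dmd, which encodes dystrophin, had 56.6 ± 13.3 FPKM in knockout hearts and 62.0 ± 3.90 FPKM in control hearts (log2 fold change -0.15, limma adjusted p = 0.54), with a sign that turned to 0.07 under scaling to one sum. Without control replicates 1, 2 and 3, the genes called lower numbered 3, 2 and 2, and those called higher 0, 0 and 1.

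Ligands of integrins, most of them read by alpha-v or alpha-5 chains, mostly rose. Of 12 tested ligand genes 8 rose and 1 fell, with a median of 0.95, against 16.1% higher over all loci, and whether the ligands as a list differ from other genes was not tested. Postn, the matrix protein periostin, had 102, 56.2 and 44.6 FPKM in knockout hearts, against 9.25, 8.76 and 10.6 FPKM in control hearts (log2 fold change 2.68, limma adjusted p = 0.00081). Ctgf had 66.7, 114 and 111 FPKM in knockout hearts, against 22.2, 11.1 and 11.9 FPKM in control hearts (log2 fold change 2.68, limma adjusted p = 0.0010). Fn1, fibronectin, the ligand of Itga5 with Itgb1, had 17.4, 29.1 and 10.5 FPKM in knockout hearts, against 5.77, 5.57 and 4.77 FPKM in control hearts (log2 fold change 1.62, limma adjusted p = 0.0081). Mfge8, a secreted bridge between dying cells and alpha-v integrins, had 94.4 ± 6.73 FPKM in knockout hearts and 34.7 ± 3.36 FPKM in control hearts (log2 fold change 1.43, limma adjusted p = 0.00050). The one that fell was Vtn, vitronectin, the namesake ligand of alpha-v beta-5, with 7.25, 2.15 and 7.19 FPKM in knockouts against 12.8, 12.4 and 15.7 FPKM in controls (log2 fold change -1.38, limma adjusted p = 0.032), a call lost when any control was left out (0.077, 0.072 and 0.10).

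**Figure D4:**
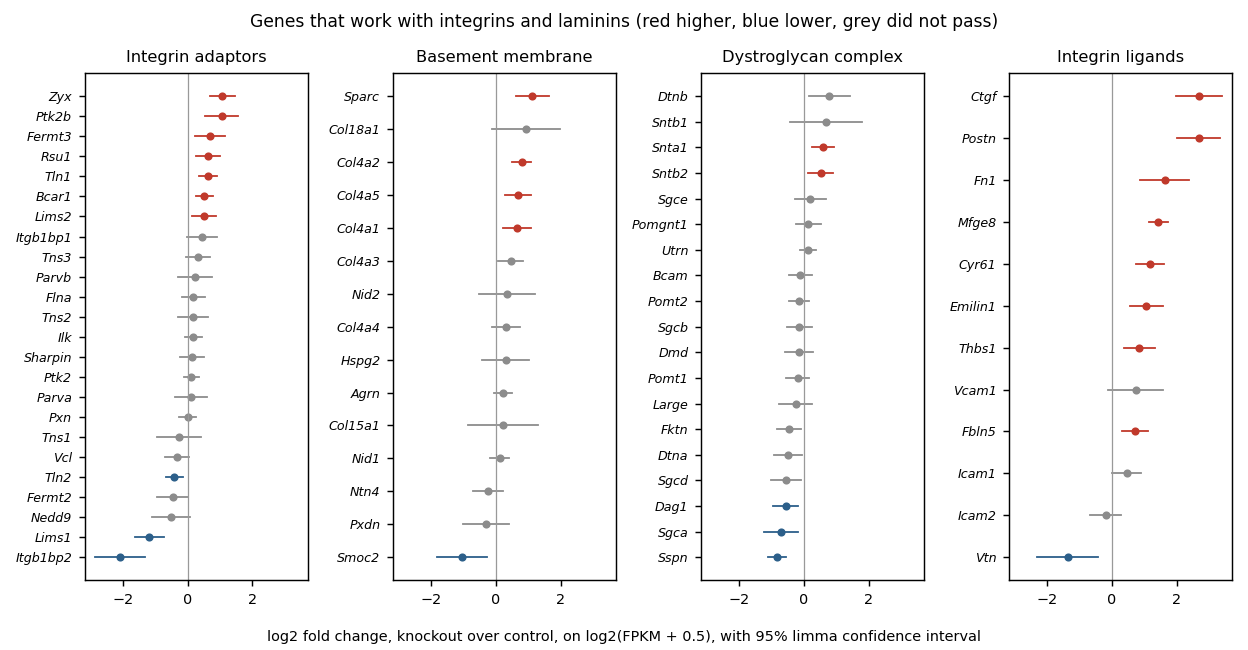
Log2 fold change, knockout over control, with 95% limma confidence intervals for tested integrin adaptors, basement membrane genes, dystroglycan complex genes and integrin ligands, in red where higher, in blue where lower and in grey where the test was not passed. Itgb1bp2 at -2.09 lies lowest among adaptors, and Ctgf and Postn at 2.68 lie highest among ligands.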

How the data were processed

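Each RNA-seq library has 1 table in which the authors deposited an FPKM value for 44450 loci, per the file headers. The submitters' processing notes name HISAT 0.1.6 and HISAT2 2.0.1, Picard 1.23, SAMtools 1.3, Cuffdiff, Cufflinks 2.2.1 and StringTie 1.1.0, and the builds GRCm38 and mm10. The role of each tool, the annotation, how libraries were scaled and whether strand was used: not given in the sources used here. Read totals are unknown, so no count model was fitted and no counting interval is given. Relative depth is the most frequent ratio of values under 1 FPKM at small RNA, pseudogene and Gm-named loci.

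Groups and replicate numbers came from the source names. The 12181 loci reaching 1 FPKM in 3 or more libraries were fitted as log2(FPKM + 0.5) with limma 3.58.1 in R 4.3.3 (empirical Bayes with variance trend, two-sided, Benjamini-Hochberg over all loci, threshold 0.05). For 7 pairs of members, the within-library difference was tested by exact two-sided permutation. The pairs not given above were Itgb2 minus Itgb1, Itgam minus Itgal and Lama4 minus Lama2 (exact permutation p = 0.20, 0.80 and 0.80). All p-values reflect only the spread among these libraries, which may be technical. The fit was tested on simulated data, where it recovered 62% of 100 changes of 2-fold and 92% of 100 changes of 4-fold. There, 7 of the 161 calls were unchanged loci. A gene that did not pass may thus still have changed. Alternatives were pseudocounts of 0.1 and 1, other filters and scalings, no variance trend, array weights, a replicate block and each library left out.

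Members, cell classes, partner and marker lists were chosen with earlier results of these data known. The text was to name every member, and from each partner list up to 4 called genes with the largest change; some of these are counted in the lists but not reported here by name or drawn. Tln1, Tln2, Ilk, Nid1, Dmd, Vtn and Cdh1 were named after their values were seen. Coordinates and promoter windows come from RefSeq tables of GRCm38.p6, which held windows for 24 of the 38 members.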

Additional observations from a re-analysis of the deposited data

How the results depend on the processing

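Of the 8 called members, Itga5, Itgam, Itgb6, Itgbl1 and Lama5 kept their call in each of the 16 alternatives. Over all loci, scaling to one sum gave 3229 higher and 1402 lower. With no filter on low values, 2 laminins were higher, 0 basement membrane genes lower, 1 dystroglycan gene higher and 3 lower, and 0 ligands lower. Scaling to one sum gave 10 adaptors higher and 2 lower, 6 basement membrane genes higher and 0 lower, and 4 dystroglycan genes higher and 3 lower. Median-of-ratios scaling and no variance trend also gave 0 basement membrane genes lower. Quantile normalization gave 2 integrins and 8 dystroglycan genes lower. Array weights gave 7 integrins higher and 2 lower, 2 laminins higher and 2 lower, and 6 adaptors higher and 7 lower. They also gave 7 basement membrane genes higher and 1 lower, and 3 dystroglycan genes higher and 8 lower. Smaller shifts of a count are not all listed. The causes were not tested.

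Leaving out 1 library gave 3 to 5 integrins higher and 1 to 2 lower, 0 to 2 laminins higher, 4 to 7 adaptors higher and 2 to 6 lower, 2 to 7 basement membrane genes higher and 0 to 1 lower, 0 to 2 dystroglycan genes higher and 2 to 7 lower, and 0 to 1 ligands lower. Over all loci it gave 1212 to 2153 higher and 1409 to 2389 lower. Same-numbered libraries did not deviate together (r = -0.083, -0.064 and -0.006), and none correlated best with its own number. The replicate block gave 1536 loci higher and 1807 lower, 1 dystroglycan gene higher, and limma adjusted p of 0.053 for Lamc1, 0.059 for Tln2 and 0.051 for Sgca.

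Signs turned for uncalled members. Itgb1 became 0.20 scaled to one sum, 0.00 by median of ratios, 0.11 by quantiles, and ranged from -0.18 to 0.13 with 1 library left out. Itga1 became 0.10 scaled to one sum and 0.10 with array weights. Itga9 became 0.21, 0.03, 0.01 and 0.10 with scaling to one sum, median of ratios, quantiles and array weights, and ranged from -0.10 to 0.16 with 1 library left out. Lamb1 became 0.11 scaled to one sum. Lama4 became 0.03 scaled to one sum, 0.02 with array weights, and ranged from -0.37 to 0.10 with 1 library left out. Depth in reads is unknown, which limits members below 1 FPKM.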
